A study of Mus musculus with 6 samples.

Results

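Respiratory complex I (NADH:ubiquinone oxidoreductase) was followed at the mRNA level in the livers of aged mice, with its nuclear and its mitochondrial genes kept apart. The members are the 39 rows of the count table whose symbols begin with Nduf, a module letter (a, b, c, s or v) and a number, and the 7 mitochondrial rows ND1, ND2, ND3, ND4, ND4L, ND5 and ND6. Together these are 46 of 32212 rows, and all 46 passed the filter on low counts. The groups were 3 WT and 3 CgA-KO male mice in the C57BL/6 background, all aged 2 yr and fed normal chow. CgA-KO mice lack chromogranin A, the prohormone encoded by Chga, and no treatment was given to either group. Bulk liver RNA was poly(A) selected and gave 1 library per mouse.

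Complex I takes electrons from NADH, hands them to ubiquinone and pumps protons across the inner mitochondrial membrane. Its N module oxidizes NADH, its Q module reduces ubiquinone, and its P module, the membrane arm with a proximal and a distal part, moves the protons. The catalytic core is divided evenly between the genomes, with 7 hydrophilic subunits encoded in the nucleus and 7 membrane subunits encoded in mitochondrial DNA. The remaining subunits are nuclear and accessory, and are needed for assembly and stability. In hepatocytes, complex I reoxidizes the NADH made by fatty acid oxidation and the citric acid cycle.

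The rule met some rows that are not ordinary subunit genes. Ndufa4 encodes a protein now assigned to complex IV, and Ndufa4l2 is its paralog, so neither was placed in a module. Ndufb4c, on chr15:73809507-73809896 of GRCm38, is annotated by GENCODE as a processed pseudogene. Its 390 bases match the 971-base Ndufb4 transcript at 390 of 390 positions, so reads inside that stretch cannot be assigned to 1 of the 2 rows. The row named Ndufb1 lies where GENCODE has Ndufb1-ps, listed there as a bidirectional promoter lncRNA. Ndufab1, the acyl carrier subunit, was not met by the rule and is not counted here.

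The total counts ranged from 10558616 to 31087453 per library, and 3 counts, the lowest level read here, corresponded to 0.0965 to 0.284 CPM, the read count scaled to library size with TMM factors. Ndufa4l2 had 5 to 46 counts. The other nuclear rows held 261 to 21937 counts in each library, and the ND rows 4165 to 445305. Chga itself had 0 counts in all 6 libraries, so the targeted gene does not check the labels. Pairs of libraries from 1 group differed by more than counting error (chi-square over its degrees of freedom, 29.9 to 190) and were kept as separate samples. WT 2 stood apart from the other libraries: its TMM factor, the library-size correction, was 0.7563 against 0.9345 to 1.121 elsewhere. It also held the highest TMM-scaled level of 44 of the 46 members, so medians of the gene groups and fold changes of the main genes are also given without it.

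Nearly all nuclear complex I mRNAs were lower in CgA-KO than in WT liver, but few differences were large against the spread between mice. The log2 fold change (CgA-KO minus WT) was below 0 for 38 of the 39 nuclear rows, with a median of -0.60, which is a change of -34%, and a range from -1.21 to 0.33. Scaling by library size in place of TMM raised the median of all genes by about as much as that of the nuclear rows, to 0.26 and -0.29, and left 32 of 39 below 0. Across all 13867 genes tested the median was -0.01 and 50.6% were below 0. In edgeR's quasi-likelihood test, adjusted over all genes by Benjamini-Hochberg, 1 nuclear row passed an adjusted p of 0.05. It was Ndufb2, which fell. That is 2.56% of the nuclear rows, and 3.84% of all genes tested were called lower. No row was called higher, where 8.6% of all genes were. Lower levels of an mRNA in bulk liver can come from fewer cells of a type or from less RNA per cell, which cannot be told apart here.

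Looser readings gave larger counts. An unadjusted p under 0.05 with a lower level in CgA-KO was found for 21 nuclear rows (53.8%), against 11.9% of all genes tested. All 3 CgA-KO libraries lay below all 3 WT libraries for 16 nuclear rows (41%), against 14.6% of all genes. An exact two-sided permutation test gave p = 0.1 for each of these 16, the smallest that 3 against 3 libraries allow. DESeq2 called 11 nuclear rows lower (28.2%), against 6.35% of the genes it tested: Ndufa1, Ndufa4, Ndufa6, Ndufa11, Ndufb1, Ndufb2, Ndufb4, Ndufb4c, Ndufb6, Ndufb9 and Ndufb11. Among them, Ndufb4 and Ndufb4c share their sequence and are not independent of each other. The other rows are read in the same libraries and are not independent either. Of the 39 nuclear rows, 38 were highest in WT 2, 21 lowest in CgA-KO 1 and 16 lowest in CgA-KO 2. The rows thus varied together, and these shares are not separate pieces of evidence.

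**Figure D1:**
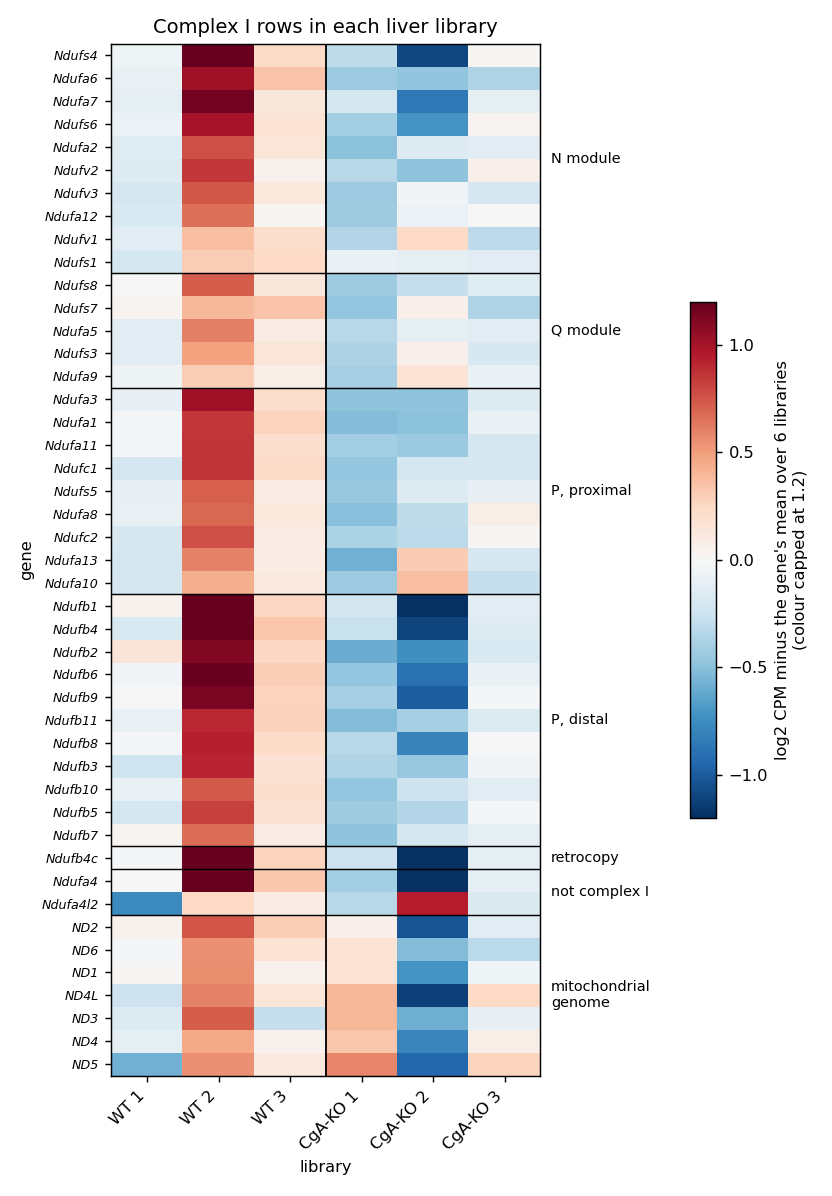
Heat map of 45 complex I rows (vertical axis) in the 6 liver libraries (horizontal axis). Colour gives log2 CPM minus the mean of that gene over the 6 libraries, capped at 1.2 in either direction, and rows are ordered by module and fold change. WT 2 is the highest library in all but 2 rows, and all 7 ND rows are lowest in CgA-KO 2.

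The size of the difference rested on WT 2 more than on any other library. The median deviation of the nuclear rows from their own means was -0.10, 0.82 and 0.19 (log2 CPM) in WT 1, 2 and 3, and -0.41, -0.31 and -0.13 in CgA-KO 1, 2 and 3. Without WT 2 the median log2 fold change of the nuclear rows was -0.33, still with 38 of 39 below 0, and edgeR called 0 rows (2.63% of all genes were then called lower). Without both WT 2 and CgA-KO 2, a comparison added after the data were seen, it was -0.31 with 39 of 39 below 0 and 0 called. Leaving out WT 1, the shallowest library, instead gave 10 rows called lower (3.95% of all genes were then called lower). Leaving out WT 3 or any 1 CgA-KO library gave 0 called, with 38 or 39 rows below 0 and medians from -0.67 to -0.48. Of all genes, 0.836% were called lower without WT 3, and 1.02%, 1.9% and 2.03% without CgA-KO 1, 2 and 3. That share was 3.84% in the main fit, so calls became fewer among all genes and not only among the nuclear rows.

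Summed over the 39 nuclear rows, Ndufa4 and Ndufb4c included, the level was 3101, 6198 and 3776 CPM in WT 1, 2 and 3. It was 2501, 2456 and 3048 CPM in CgA-KO 1, 2 and 3. With TMM factors the highest CgA-KO library thus lay just under the lowest WT library, and WT 2 held 1.8 times the mean of WT 1 and WT 3. As a share of all counts, without TMM factors, the rows held 0.328%, 0.469% and 0.353% in WT 1, 2 and 3. In CgA-KO 1, 2 and 3 they held 0.280%, 0.270% and 0.330%. By that share CgA-KO 3 exceeded WT 1, so the groups overlapped. The TMM-scaled group means over the 39 rows were 4358 ± 1628 and 2668 ± 329 CPM (SD, n = 3), a difference of -38.8%, or -22.4% when WT 2 was left out. Without Ndufa4 and Ndufa4l2 the TMM-scaled sums were 2745 to 5264 CPM in WT and 2233 to 2720 CPM in CgA-KO.

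Among the modules, the distal membrane arm had the lowest median under TMM, under library size alone (-0.46) and without WT 2 (-0.47). Its 11 nuclear subunits had a median log2 fold change of -0.78, with all 11 below 0 under either scaling, 7 without overlap between the groups, 1 called by edgeR and 6 by DESeq2. Of all genes tested, 14.6% were lower without overlap and edgeR called 3.84% lower, while DESeq2 called 6.35% of its genes lower. The N module had a median of -0.56 over 10 subunits, 2 of them without overlap. The proximal membrane arm had -0.51 over 9 subunits, 4 without overlap, and the Q module -0.38 over 6 subunits, 1 without overlap. All subunits of these 3 modules were below 0, and 8 of 10, 7 of 9 and 4 of 6 under library size alone. Without WT 2 their medians were -0.23, -0.25 and -0.18, so the order of the N module and the proximal arm was reversed. These medians differed by less than the gap between WT 2 and the other WT libraries, and the difference between modules was not tested. The libraries also ranked differently by module. In CgA-KO 2 the median deviation of the distal subunits was -0.74, while that of the Q module subunits was 0.03.

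Ndufb2, an accessory subunit of the distal membrane arm, lies on chr6:39592574-39603382 of GRCm38, plus strand. Its level was 57.6, 111.7 and 61.2 CPM in WT 1, 2 and 3, and 34.1, 31.0 and 45.5 CPM in CgA-KO 1, 2 and 3. The groups did not overlap, and WT 1 and WT 3 lay closer to the CgA-KO libraries than to WT 2. The log2 fold change was -1.06 ± 0.29 (SE), with an adjusted p of 0.0444 in edgeR's test. When each library was left out in turn, the adjusted p ranged from 0.0272 to 0.15 and the call held only without WT 1, while the log2 fold change stayed between -1.21 and -0.69 (the latter without WT 2).

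Other accessory subunits of the distal arm had fold changes of like size with larger errors. Ndufb1, Ndufb4 and Ndufb6 had log2 fold changes of -1.13, -1.12 and -1.02, with standard errors of 0.41, 0.40 and 0.34, and adjusted p-values of 0.105, 0.103 and 0.0825 in edgeR's test. The 6 rows with log2 fold changes below -1 were these 3, Ndufb2, Ndufb4c and Ndufa4. With Ndufb4 and Ndufb4c added into 1 row, a step added after the data were seen, the log2 fold change was -1.10 ± 0.40 (SE), with an adjusted p of 0.108. The count of Ndufb4c was 2.29 to 2.72 times that of Ndufb4 in every library. Reads in their shared stretch cannot be assigned to 1 of the 2 rows, so this ratio does not describe the 2 genes apart.

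The 7 nuclear core subunits, which carry the flavin, the iron-sulfur clusters and the quinone site, had smaller differences than the accessory ones. Their median log2 fold change was -0.35, with 7 of 7 below 0 (4 of 7 under library size alone, where Ndufv1 and Ndufs1 were among those above 0), 1 without overlap and 0 called. The 30 accessory rows, which include Ndufb4c, had a median of -0.70, with 30 of 30 below 0 (27 of 30 under library size alone), 14 without overlap and 1 called. Of all genes tested, 14.6% were lower without overlap and 3.84% were called lower. Without WT 2 the medians of core and accessory rows were -0.18 and -0.36. In CgA-KO 2 the median deviation of the core rows was 0.01 (log2 CPM), against -0.42 for the accessory rows. The difference between core and accessory rows was not tested.

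Ndufv1 binds the flavin that accepts electrons from NADH. Its level was 88.5, 125.5 and 112.9 CPM in WT 1, 2 and 3, and 76.2, 114.8 and 78.3 CPM in the CgA-KO libraries in the same order. CgA-KO 2 lay among the WT libraries, and the log2 fold change was -0.28 ± 0.23 (SE). Ndufv2, its partner with an iron-sulfur cluster, was at 100.9, 202.8 and 116.7 CPM in WT and 89.5, 80.7 and 117.2 CPM in CgA-KO. CgA-KO 3 was level with WT 3, and the log2 fold change was -0.55 ± 0.29 (SE). Ndufs1, the largest subunit of the N module with further iron-sulfur clusters, was at 61.9, 87.4 and 84.5 CPM in WT and 67.6, 65.9 and 65.3 CPM in CgA-KO. Here the CgA-KO libraries were nearly equal and WT 1 was the lowest library of all 6, with a log2 fold change of -0.24 ± 0.19 (SE). Adjusted p-values for these 3 genes ran from 0.251 to 0.47 in edgeR's test. Without WT 2 the log2 fold changes of Ndufv1, Ndufv2 and Ndufs1 were -0.17, -0.19 and -0.15.

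In the Q module, Ndufs7, which carries the last iron-sulfur cluster before ubiquinone, was at 47.3, 60.6 and 58.7 CPM in WT and 33.7, 48.2 and 36.1 CPM in CgA-KO. CgA-KO 2 just exceeded WT 1. Ndufs3, a structural core subunit, was at 87.2, 133.3 and 105.5 CPM in WT and 73.4, 99.2 and 83.1 CPM in CgA-KO, again with CgA-KO 2 above WT 1. Ndufs8, which holds 2 iron-sulfur clusters, was at 60.6, 100.9 and 66.7 CPM in WT and 45.2, 50.2 and 55.1 CPM in CgA-KO. It was the core gene without overlap and had the largest core difference, a log2 fold change of -0.60 ± 0.23 (SE) with an adjusted p of 0.118. The log2 fold changes of Ndufs7 and Ndufs3 were -0.50 and -0.35, with adjusted p-values of 0.139 and 0.332 in edgeR's test. Without WT 2, Ndufs8, Ndufs7 and Ndufs3 were at -0.35, -0.43 and -0.18.

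**Figure D2:**
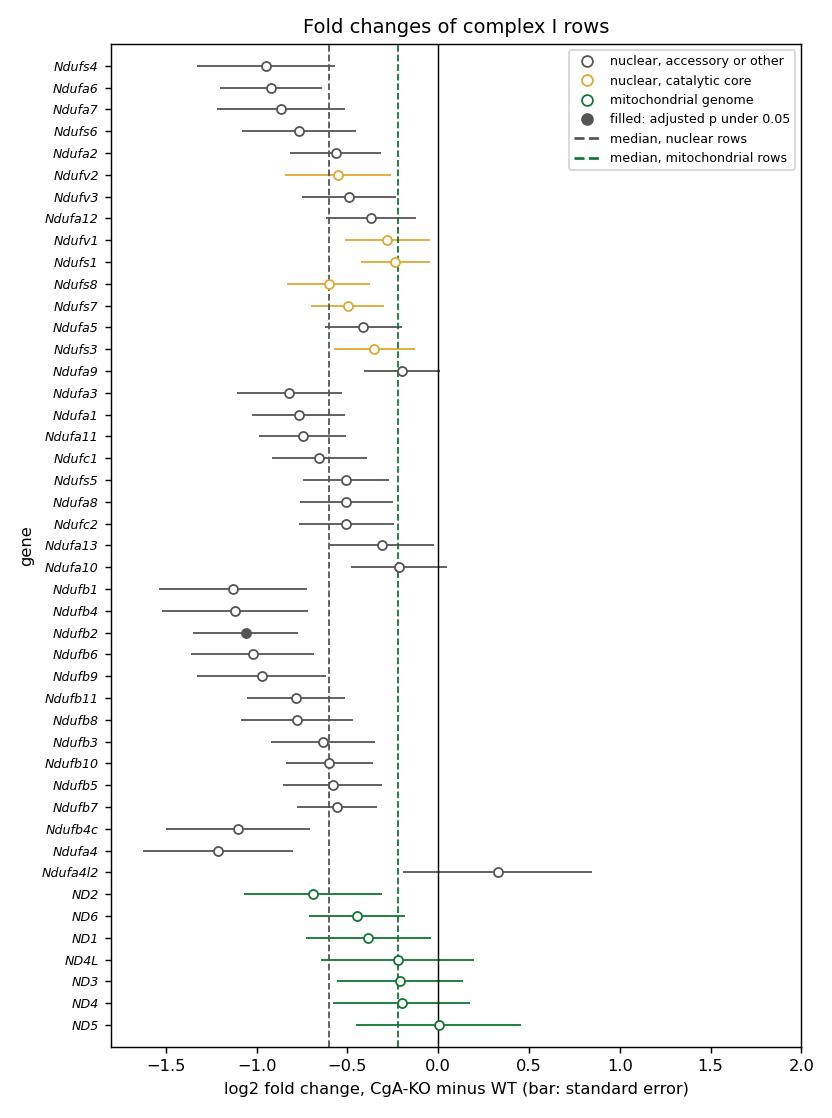
Log2 fold change, CgA-KO minus WT, with its standard error (horizontal axis) for 45 rows (vertical axis), ordered by module as in the heat map. Open points did not pass an adjusted p of 0.05, and the dashed lines mark the medians of the nuclear (-0.60) and mitochondrial rows (-0.22). Ndufb2 is the filled point, and Ndufa4l2 is the nuclear row on the right of 0.

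Ndufa4 had the largest difference of all 46 rows. Its level was 356.2, 933.3 and 442.1 CPM in WT 1, 2 and 3, and 267.3, 153.9 and 327.6 CPM in CgA-KO 1, 2 and 3. The groups did not overlap, but CgA-KO 3 came close to WT 1, and WT 2 was far above every other library. The log2 fold change was -1.21 ± 0.41 (SE), with an adjusted p of 0.0896 by edgeR, 0.0173 by DESeq2, and 0.046 by edgeR without WT 1. Without WT 2 the log2 fold change was -0.68, with an adjusted p of 0.235 by edgeR. Its paralog Ndufa4l2, known as a hypoxia-induced gene, was near the limit of detection at 0.448, 0.893 and 0.805 CPM in WT and 0.604, 1.46 and 0.672 CPM in CgA-KO. The groups overlapped and the log2 fold change was 0.33 ± 0.52 (SE), with an adjusted p of 0.726. Without these 2 rows, the nuclear median was still -0.60 over 37 rows, all 37 of them below 0.

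No difference of a mitochondrial core subunit between the genotypes passed the test. No ND row was called in either direction, with adjusted p-values from 0.266 to 0.998 in edgeR's test, and DESeq2 called 0 as well. The unadjusted p was under 0.05 for 0 of 7 in edgeR's test. The log2 fold change was below 0 for 6 of the 7 with a median of -0.22 (-14.3%), but for 3 of 7 with a median of 0.09 under library size alone, and the groups overlapped for all 7.

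The genes lie on chrM of GRCm38 in the order ND1 (2751-3707), ND2 (3914-4951), ND3 (9459-9806), ND4L (9877-10173), ND4 (10167-11544), ND5 (11742-13565) and ND6 (13552-14070). ND6 is the member on the opposite strand. It overlaps ND5 by 14 bases, and ND4L overlaps ND4 by 7 bases in the same direction. The stretch of that junction, chrM:10155-10185 on the plus strand, is shown because reads across it belong to both rows. The 7 shared bases are in capitals.
ND4L and ND4 junction: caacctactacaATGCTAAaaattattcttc

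The end of ND4L is thus the start of ND4, and the mRNA of this pair is known to be a single bicistronic molecule. Whether the counting used strand is not given in the sources used here, so reads of ND6 and of RNA from the strand opposite to it cannot be told apart.

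ND2, a proton-pumping subunit of the proximal arm, had the largest mitochondrial difference. Its level was 10690, 17360 and 12680 CPM in WT 1, 2 and 3, and 10750, 5022 and 9466 CPM in CgA-KO 1, 2 and 3. CgA-KO 1 was level with WT 1, and the log2 fold change was -0.69 ± 0.38 (SE) with an adjusted p of 0.266 in edgeR's test. It was -0.38 without CgA-KO 2 and -0.48 without WT 2. ND1, at the mouth of the ubiquinone channel, was at 9688, 14120 and 9952 CPM in WT and 10750, 5840 and 9270 CPM in CgA-KO. Its log2 fold change was -0.39 ± 0.35 (SE), -0.13 without CgA-KO 2 and -0.19 without WT 2. ND6 was at 373.0, 554.4 and 423.8 CPM in WT and 423.9, 264.9 and 302.7 CPM in CgA-KO. CgA-KO 1 equalled WT 3, and the log2 fold change was -0.45 ± 0.26 (SE) with an adjusted p of 0.301 in edgeR's test, and -0.27 when CgA-KO 2 or WT 2 was left out singly.

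ND3 and ND4L, small membrane subunits of the proximal arm, were lowest in CgA-KO 2 and, with TMM factors, highest in WT 2. ND3 was at 380.3, 706.6 and 353.7 CPM in WT and 562.0, 285.0 and 398.5 CPM in CgA-KO. ND4L was at 2365, 4237 and 3100 CPM in WT and 3704, 1289 and 3326 CPM in CgA-KO. For both, CgA-KO 1 and 3 exceeded WT 1. ND4 and ND5, the antiporter-like proton pumps of the distal arm, were alike in this. ND4 was at 12750, 18940 and 14310 CPM in WT and 17430, 7993 and 14560 CPM in CgA-KO. ND5 was at 5710, 12490 and 9269 CPM in WT and 12790, 4433 and 10290 CPM in CgA-KO. It was the ND gene whose highest TMM-scaled level was in a CgA-KO library, CgA-KO 1, and its group means were almost equal. Without TMM factors, the ND rows together held 6.32% of all counts in CgA-KO 1 and 5.17% in WT 2. The highest library for their sum thus depended on the scaling. The log2 fold changes were -0.21 for ND3, -0.22 for ND4L, -0.20 for ND4 and 0.00 for ND5, with standard errors from 0.35 to 0.45.

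Compared per kilobase of mRNA, the ND levels ranged widely within every library. ND2, ND1, ND4 and ND4L were the highest in WT, at 13080 ± 3297, 11760 ± 2601, 11130 ± 2338 and 10890 ± 3176 CPM per kilobase (SD, n = 3). Their group SDs overlapped, but the genes are read in the same libraries, where ND2 exceeded ND1 and ND1 exceeded ND4 in each of the 3 WT libraries. ND5 followed at 5020 ± 1860, then ND3 at 1380 ± 565 and ND6 at 868 ± 180 CPM per kilobase, with ND3 above ND6 in all 6 libraries. In CgA-KO the means were 8103 ± 2894 for ND2, 9009 ± 2633 for ND1, 9674 ± 3512 for ND4 and 9337 ± 4373 for ND4L. They were 5027 ± 2351 for ND5, 1193 ± 400 for ND3 and 637 ± 160 for ND6. The order of the means thus differed from WT only among the leading 4 genes, where ND2 was below ND1 in each of the 3 CgA-KO libraries. The libraries were poly(A) selected, and the part of tail length in these levels was not tested.

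**Figure D3:**
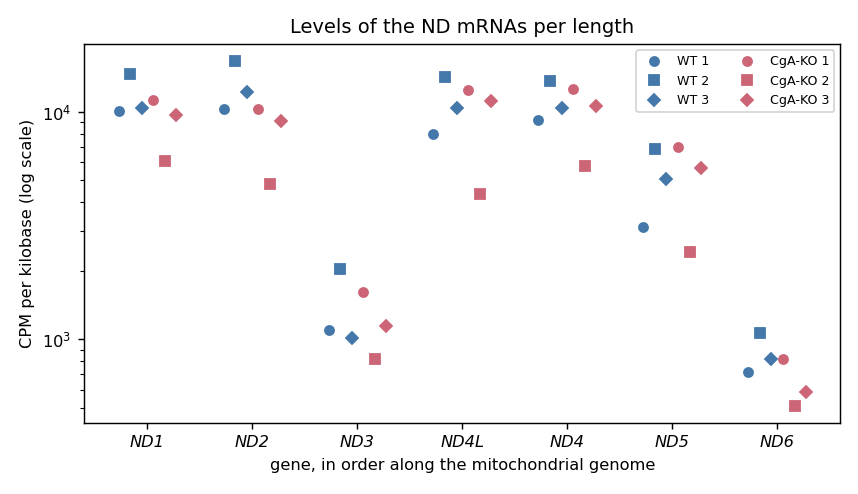
Levels of the 7 ND mRNAs in CPM per kilobase (vertical axis, log scale), with the genes in their order along the mitochondrial genome (horizontal axis). Each point is 1 library, blue for WT and red for CgA-KO, with the marker shape giving the replicate. CgA-KO 2 is the lowest point for every gene, and the groups overlap for all 7.

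The sign of the mitochondrial median rested on CgA-KO 2 as well as on the scaling. The median deviation of the 7 ND rows was -0.12, 0.55 and 0.12 (log2 CPM) in WT 1, 2 and 3, and 0.33, -0.79 and -0.05 in CgA-KO 1, 2 and 3. Without CgA-KO 2 the median log2 fold change was 0.05, without WT 2 it was -0.02, and without both it was 0.24, with 2 of 7 below 0. The share of all counts on mitochondrial mRNAs, without TMM factors, was 13.2%, 15.9% and 13.5% in WT and 19.5%, 8.99% and 15.7% in CgA-KO. That share was also lowest in CgA-KO 2, but it was highest in CgA-KO 1 and not in WT 2. The other 6 mitochondrial mRNAs, which encode subunits of complexes III, IV and V, had a median log2 fold change of -0.11 (0.19 under library size alone and 0.09 without WT 2), with 4 of 6 below 0 and 0 called by edgeR or DESeq2. Their median deviation in CgA-KO 2 was -0.61, near that of the ND rows.

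Set against each other, the genomes did not keep a fixed proportion. The ratio of summed ND counts to the summed counts of all nuclear rows, Ndufa4 included, does not depend on scaling between libraries. It was 13.5, 11.04 and 13.3 in WT 1, 2 and 3, and 22.6, 10.2 and 15.6 in CgA-KO 1, 2 and 3. CgA-KO 1 had the highest and CgA-KO 2 the lowest ratio of all 6 libraries, so the WT range lay inside the CgA-KO range. The means were 12.6 ± 1.37 and 16.1 ± 6.18 (SD, n = 3), and the difference of mean log2 ratios, 0.29, ranged from 0.01 without CgA-KO 1 to 0.58 without CgA-KO 2.

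**Figure D4:**
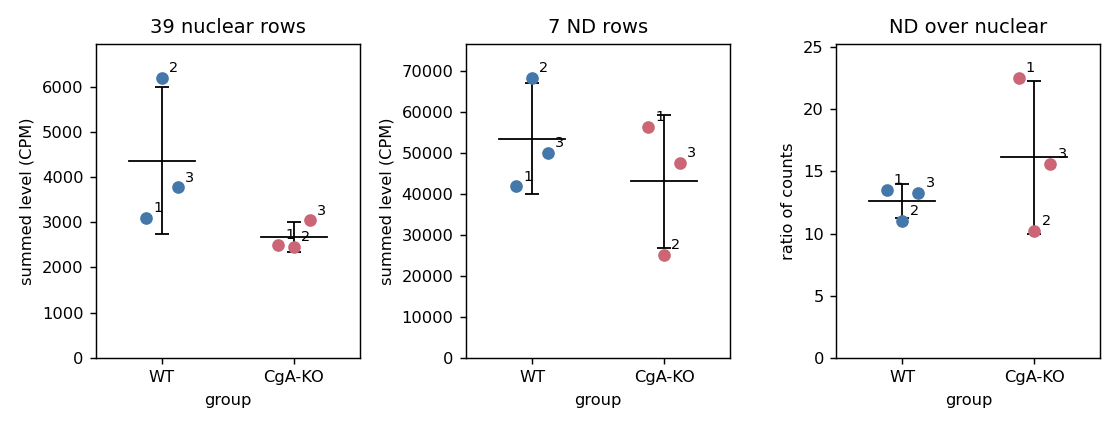
Summed level of the 39 nuclear rows and of the 7 ND rows in CPM, and the ratio of their counts (vertical axes, each from 0), by group (horizontal axis). Points are libraries with their replicate number, the horizontal line is the group mean and the bar the SD (n = 3). TMM-scaled nuclear sums of the CgA-KO libraries, 2456 to 3048, lie under the lowest WT sum of 3101, while ND sums and ratios overlap. As shares of all counts, without TMM factors, the nuclear rows overlap too.

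Within the nuclear rows, shorter coding sequences went with lower fold changes. Over the 37 nuclear rows with an annotated coding length, the Spearman correlation of coding length with the log2 fold change was 0.473, and over 13212 genes tested it was 0.119. These are descriptions across genes of the same 6 libraries, which share depth and RNA quality. Among all genes tested, the median log2 fold change was -0.41 for coding sequences of up to 300 bases, -0.28 for 301 to 450 bases and 0.00 for 901 to 1500 bases. The nuclear complex I rows in those classes had medians of -0.71 (6 rows), -0.69 (14 rows) and -0.22 (5 rows). In each of the 6 length classes that hold members, their median was below that of all genes. Core subunits are mostly longer than accessory ones, and the part of length in the difference between core and accessory rows was not tested.

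**Figure D5:**
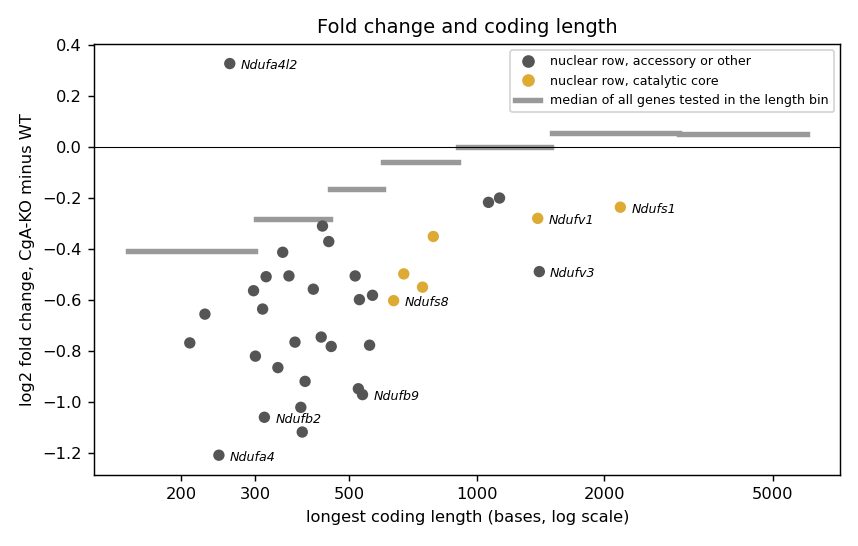
Log2 fold change, CgA-KO minus WT (vertical axis), against the longest annotated coding length in bases (horizontal axis, log scale) for 36 nuclear rows. Yellow points are core subunits, dark points are accessory or other rows, and grey bars are medians of all genes tested in each length class. The long core genes Ndufs1 and Ndufv1 lie above the short accessory genes such as Ndufb2.

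The promoters of the nuclear members were searched for motifs of factors linked to respiratory genes. Promoter sequences (250 bases before to 50 after the start) came from RefSeq for GRCm38.p6, where 33 of the 39 members matched. Both strands were searched for NRF1 (GCGCATGC), ETS (CCGGAAG), YY1 (AAGATGGC), ERR (TCAAGGTCA) and CRE (TGACGTCA) letters. YY1 letters were in 7 members (21.2%) and in 3.19% of 27025 promoters. NRF1 letters were in 3 members (9.09%, against 3.05%), CRE letters in 3 (9.09%, against 2.03%), ETS letters in 4 (12.1%, against 9.93%) and ERR letters in 0 (against 0.466%). A match describes these letters only, and factor binding was not measured.

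The sequences below show the motif letters in capitals, 5′ to 3′ on the strand of the gene, for the called gene and for members with matches. In Ndufb2 the CRE letters, which read the same on both strands, began 14 bases before the start base (promoter chr6:39592315-39592614, plus strand). The NRF1 letters read forward in Ndufa11 (chr17:56717512-56717811, plus strand), where a reverse match overlaps them, and in reverse in Ndufa6 (chr15:82354242-82354541, minus strand). The YY1 letters of Ndufs7 (chr10:80249199-80249498, plus strand) and Ndufc1 (chr3:51408906-51409205, minus strand) lay after the start, as did those of all 7 members, 22 to 38 bases from it.
Ndufb2, CRE: tgcgacgcagTGACGTCAcgggccggga
Ndufa11, NRF1: cctgcactgcGCGCATGCgcgcacgcct
Ndufa6, NRF1: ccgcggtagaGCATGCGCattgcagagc
Ndufs7, YY1: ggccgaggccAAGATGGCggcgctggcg
Ndufc1, YY1: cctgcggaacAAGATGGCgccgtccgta

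The members that share letters did not share a size of difference. Among the 7 with YY1 letters, the log2 fold change ran from -0.20 for Ndufa9 to -0.95 for Ndufs4. The 3 with CRE letters had -1.06 for Ndufb2, -0.75 for Ndufa11 and -0.22 for Ndufa10.

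Complex I assembly factors, which build the complex and are not part of it, were also mostly lower under TMM. Of the 18 tested, 17 were below 0 (10 under library size alone, 14 without WT 2) and 9 were lower without overlap, against 14.6% of all genes tested. The median log2 fold change was -0.49 (-0.31 without WT 2). Ndufaf6, an early factor of the Q module and ND1 arm, fell, at 12.0, 24.4 and 16.1 CPM in WT and 7.66, 6.47 and 10.4 CPM in CgA-KO. The groups did not overlap, and its log2 fold change was -1.11 ± 0.30 (SE) with an adjusted p of 0.0444 in edgeR's test. Ndufaf6 was the 1 assembly factor of 18 that edgeR called lower, where 3.84% of all genes tested were. No assembly factor was called under library size alone or without WT 2. The nuclear subunits of complexes II to V were similar to those of complex I, with 37 of 37 below 0 (31 under library size alone, 36 without WT 2), a median of -0.56 (-0.33 without WT 2), 13 without overlap, 0 called by edgeR and 9 by DESeq2. DESeq2 called 6.35% of all its genes lower.

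Factors that transcribe mitochondrial DNA or handle its RNA had smaller differences, with 18 of 20 below 0, a median of -0.22 (9 of 20 and 0.07 under library size alone, 13 of 20 and -0.12 without WT 2), and 0 called by edgeR or DESeq2. Lrpprc, which stabilizes mitochondrial mRNAs, had a log2 fold change of -0.52 (adjusted p = 0.119), and its partner Slirp had -0.82 (adjusted p = 0.101), both in edgeR's test. Regulators of nuclear respiratory genes went both ways, with 4 of 11 below 0 and a median of 0.09 (2 of 11 and 0.34 under library size alone, 6 of 11 and -0.01 without WT 2). EdgeR called 0 of them, and DESeq2 called 1 lower, as it did 6.35% of all its genes. Without overlap between the groups, 1 of the 11 was lower and 2 were higher, where 2018 and 2639 of all 13867 genes tested were. Esrra, a nuclear receptor that drives such genes, was at 36.4, 41.7 and 46.3 CPM in WT and 29.8, 28.03 and 28.01 CPM in CgA-KO, without overlap, with a log2 fold change of -0.54 (adjusted p = 0.0644). Its coactivator Ppargc1a was at 10.2, 7.79 and 13.4 CPM in WT and 15.1, 17.7 and 14.0 CPM in CgA-KO, also without overlap, a difference in the opposite direction of 0.58 (adjusted p = 0.149).

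Markers of some cell types, but not of all, differed between the groups beside these results. Hepatocyte markers were abundant in every library, as the tissue label requires, with summed levels of 74970 to 122300 CPM in WT and 68410 to 112500 CPM in CgA-KO. Of 14, 9 were below 0, edgeR called 0 and DESeq2 called 1 lower, as it did 6.35% of all its genes. The median log2 fold change of the 14 was -0.15 (0.15 under library size alone and 0.03 without WT 2). Of 13 Kupffer cell markers, 12 were called higher in CgA-KO, where 8.6% of all genes tested were. Their sums were 143.5 to 373.1 CPM in WT and 1532 to 2192 CPM in CgA-KO. T and NK cell markers (5 of 8 called higher, sums of 3.70 to 14.3 and 47.4 to 107.4 CPM), neutrophil markers (3 of 5 tested, 6.82 to 12.2 and 45.3 to 239.2 CPM) and stellate cell markers (3 of 8, 178.9 to 232.4 and 355.9 to 484.3 CPM) were called in the same direction. Only 5 of the 8 neutrophil markers listed passed the filter. Retnlg and Ngp were at most 0.553 and 0.255 CPM in WT, so they passed through CgA-KO and their direction was not open. Among the called T and NK cell markers, Cd3d and Nkg7 were at 1.34 CPM in WT 1, but at most 0.51 and 0.38 CPM in WT 2 and 3. They too needed CgA-KO libraries to pass the filter, so their direction was not fully open. Without WT 2, edgeR called 8 of the Kupffer, 0 of the T and NK, 1 of 7 neutrophil and 2 of the stellate cell markers, all higher. In that fit 3.31% of all genes were called higher.

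Endothelial markers had 2 called higher and 1 called lower of 8 (sums of 123 to 164.2 CPM in WT and 150.7 to 223.1 CPM in CgA-KO). Erythroid markers had 1 called each way of 4 (118.4 to 291 and 333.2 to 475.6 CPM), and B and plasma cell markers 0 of 6 (8.05 to 52.6 and 13.2 to 51.1 CPM). Of all genes tested, 8.6% were called higher and 3.84% lower. No listed marker in the table was at 0 in all libraries. The median deviation of the hepatocyte markers was -0.21, 0.34 and 0.09 in WT 1, 2 and 3, and -0.30, 0.34 and -0.20 in CgA-KO 1, 2 and 3, so WT 2 was high there as well, and CgA-KO 2 stood beside it. The part of these cell types in the complex I levels was not tested.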

How the data were processed

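The authors quantified paired-end liver reads with Salmon 1.4.0 against GRCm38 and deposited raw counts for 32212 gene symbols in 6 libraries. How transcripts were summed to genes is not given in the sources used here. All columns were mapped to samples. Counts were fitted with edgeR 4.0.16 in R 4.3.3: filterByExpr with a minimum count of 10 (13867 genes), TMM factors, a robust quasi-likelihood test of genotype and Benjamini-Hochberg adjustment over all genes, with calls at an adjusted p under 0.05. Levels are TMM-scaled CPM, and 3 counts were taken as the floor, which covers counting error only. Nothing pairs the mice of the groups. Standard errors of log2 fold changes were taken from the fold change and its F statistic. Alternatives were DESeq2 1.42.0, limma-voom (limma 3.58.1), other scalings and filters, a replicate block and leaving out libraries. Scripts were tested on simulated data. Values in every library are given for the 7 ND genes, nuclear core subunits, called nuclear members, Ndufa4 and Ndufa4l2, except 1 member that is counted in the groups and not reported singly here. The others are given by range, and further single genes were named after their values were seen. Members and lists were chosen with earlier results of these data known.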

Additional observations from a re-analysis of the deposited data

How the results depend on the processing

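The nuclear median log2 fold change stayed below the median of all genes in all 15 fits. Called nuclear rows numbered 11 with DESeq2 and 0 under scaling by library size alone, under upper-quartile factors, with a replicate block, and without WT 2 and CgA-KO 2 together, and leaving out 1 library gave 0 to 10. Of all genes, 6.35% were called lower with DESeq2, 1.44% under library size alone, 3.08% under upper-quartile factors and 2.92% with the block. Leaving out 1 library moved the nuclear median from -0.73 to -0.33, the mitochondrial median from -0.448 to 0.045 and the log2 ratio of ND to nuclear counts from 0.01 to 0.58. With library size alone as the scaling, the median of all genes was 0.26. It gave a nuclear median of -0.29 with 32 of 39 below 0 and a mitochondrial median of 0.093, which are -0.55 and -0.17 relative to all genes, and moved the share of higher among all calls from 69.1% to 86.6%. That share was 74.2% under upper-quartile factors, 55.8% without WT 2 and 80.5% without CgA-KO 1. Library size alone also turned ND3 to 0.12, ND4 to 0.10, ND4L to 0.093, Ndufv1 to 0.013 and Ndufs1 to 0.056. Without WT 2 and CgA-KO 2 together, the mitochondrial median was 0.24, ND1 0.029, ND3 0.39, ND4 0.24, ND4L 0.36 and Ndufa4l2 -0.027. ND5 was -0.023 with DESeq2, -0.018 with factors from nuclear-genome rows, -0.003 with a filter on a total of at least 1, -0.013 with limma-voom and -0.046 with the replicate block. Leaving out 1 library gave ND3 -0.45 to 0.18, ND4 -0.40 to 0.10, ND4L -0.45 to 0.16, ND5 -0.27 to 0.38 and Ndufa4l2 -0.16 to 0.58. The cause was not tested. Ndufb2 lost its call under library size alone (adjusted p = 0.0739), upper-quartile factors (0.0516) and the replicate block (0.0875) in edgeR's test. Same-numbered mice correlated at 0.20, 0.01 and -0.07 in their deviations from the group means, so the numbers were not taken as pairs. Depth limits Ndufa4l2, with as few as 5 counts, more than any other member.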
